A study of Mus musculus with 16 samples.

Results

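Immunoglobulin heavy chain variable segments (Ighv) were counted in RNA from whole mouse bone marrow, 1 of the tissues in which B cells are made. The annotation holds 185 Ighv genes, of which 70 are pseudogenes and were left out. Of the 115 others, 88 had a summed count of at least 160 over the 16 libraries and make up the set described here, out of 57132 genes in the count table. They belong to 15 families: Ighv1 holds 43 members, Ighv5 holds 9, Ighv2 holds 8, Ighv3 holds 5, Ighv9 and Ighv14 hold 4 each, Ighv7 and Ighv8 hold 3 each, Ighv6 and Ighv10 hold 2 each, and Ighv4, Ighv11, Ighv12, Ighv13 and Ighv15 hold 1 each. All 88 passed the filter on low counts, and their summed counts ran from 166 to 12139 with a median of 1549.

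The marrow came from Nrf2-/- mice (KO) and from C57BL/6 wild-type mice (WT), each under 4 treatments with 2 libraries per group. NRF2, the product of Nfe2l2, is a transcription factor of the antioxidant response. The KO mice were bred from Nrf2+/- parents of both sexes and carry an inactive mutant form of the gene, and no age was given for them in the labels. The WT mice were males of 8 to 10 weeks. In each genotype 1 group received BMX-001 (named a radioprotector in the title of the series) together with 5-fluorouracil (5-FU, a chemotherapy drug that blocks thymidylate synthesis), 1 group 5-FU, 1 group BMX-001, and 1 group PBS as the control. BMX-001 dosing (0.5 mg/kg) began 24 h ahead of 5-FU and was repeated every 3 days. 5-FU (20 mg/kg) was injected again on day 7, and the animals were killed for marrow on day 10. The labels speak of marrow isolated in duplicate and do not say whether the duplicates were separate animals, so the p-values measure only the spread between these libraries, which may be technical.

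A developing B cell joins 1 V segment to a D and a J segment, so that its heavy chain transcripts carry the sequence of a single Ighv gene. Most precursor and naive B cells express this chain with the mu constant region, and plasma cells, which secrete antibody, hold far more immunoglobulin mRNA per cell than other B cells. Reads over V segments therefore describe which segments the B lineage cells of a sample used, weighted by the RNA in each cell. In bulk marrow, fewer cells using a segment and less RNA per cell cannot be told apart. A raised share of 1 segment also cannot be told apart as 1 expanded clone or many cells with the same segment, since the files hold no junction sequences.

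Set against each other only, and not against all Ighv genes, the segments shown here differ clearly in sequence, with 1 exception. The last 300 bases of their coding sequences are given 5′ to 3′ on the coding strand (chromosome 12, minus strand, GENCODE annotation of GRCm38). Capitals mark the match to TANTNNTGN nearest to the end, which encodes the end of framework 3 with its conserved cysteine. Ighv4-1 is shown because it held the largest share of any segment in any library, Ighv1-26 because it was the most used on average, and Ighv14-2 and Ighv1-15 because they were called in the most comparisons. Ighv2-2 and Ighv2-4 are shown as a close pair, of which Ighv2-4 was the only member whose KO and WT libraries did not overlap.
Ighv4-1: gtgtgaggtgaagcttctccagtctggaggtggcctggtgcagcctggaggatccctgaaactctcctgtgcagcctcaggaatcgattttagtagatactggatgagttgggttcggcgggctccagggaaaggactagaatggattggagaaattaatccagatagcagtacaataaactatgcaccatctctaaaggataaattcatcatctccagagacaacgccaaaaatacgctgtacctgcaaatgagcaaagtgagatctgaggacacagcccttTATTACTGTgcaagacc
Ighv1-26: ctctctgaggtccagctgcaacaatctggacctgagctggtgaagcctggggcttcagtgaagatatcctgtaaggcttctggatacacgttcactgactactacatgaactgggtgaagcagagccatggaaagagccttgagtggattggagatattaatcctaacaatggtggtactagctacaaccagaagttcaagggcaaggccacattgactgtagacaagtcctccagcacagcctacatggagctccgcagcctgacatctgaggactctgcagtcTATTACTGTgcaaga
Ighv14-2: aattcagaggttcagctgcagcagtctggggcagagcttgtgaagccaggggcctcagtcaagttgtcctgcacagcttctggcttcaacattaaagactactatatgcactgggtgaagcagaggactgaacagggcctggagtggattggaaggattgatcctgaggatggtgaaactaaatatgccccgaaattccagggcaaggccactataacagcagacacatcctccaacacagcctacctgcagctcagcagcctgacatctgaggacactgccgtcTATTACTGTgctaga
Ighv1-15: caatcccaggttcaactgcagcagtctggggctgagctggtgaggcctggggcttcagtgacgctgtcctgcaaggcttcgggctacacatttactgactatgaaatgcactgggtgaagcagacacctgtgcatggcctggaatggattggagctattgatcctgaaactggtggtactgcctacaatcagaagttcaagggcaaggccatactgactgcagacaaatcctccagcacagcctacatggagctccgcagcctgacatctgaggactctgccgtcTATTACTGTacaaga
Ighv2-2: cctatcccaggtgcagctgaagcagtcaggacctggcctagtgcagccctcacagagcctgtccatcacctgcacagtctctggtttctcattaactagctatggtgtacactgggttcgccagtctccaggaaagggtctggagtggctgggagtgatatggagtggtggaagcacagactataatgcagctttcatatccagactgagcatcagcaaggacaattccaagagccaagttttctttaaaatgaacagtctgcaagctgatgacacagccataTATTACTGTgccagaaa
Ighv2-4: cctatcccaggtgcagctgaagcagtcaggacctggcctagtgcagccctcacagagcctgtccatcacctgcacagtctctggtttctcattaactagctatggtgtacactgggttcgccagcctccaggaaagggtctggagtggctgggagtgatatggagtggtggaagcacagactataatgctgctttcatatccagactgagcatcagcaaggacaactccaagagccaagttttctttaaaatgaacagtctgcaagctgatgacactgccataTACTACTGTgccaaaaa
Over the whole coding sequence Ighv4-1 and Ighv1-26 differ by 134 base changes, insertions or deletions and are 61.8% identical. Ighv1-15 and Ighv1-26, of the same family, are 85.5% identical, and Ighv14-2 is 78.9% identical to Ighv1-15. Ighv2-2 and Ighv2-4 differ by 8 such changes and are 97.7% identical, and 24.3% of the 100-base windows of each are found in another Ighv gene. The motif TANTNNTGN, searched on the coding strand only, was found within the last 30 bases of 87 of the 88 members (98.9%), in 109 of the 115 segments that are not pseudogenes (94.8%) and in 41 of the 70 pseudogenes (58.6%).

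Near-identical sequence may limit how far counts can be assigned to some members, which was not tested. The identity of a member to its nearest Ighv relative had a median of 95.01% and ran from 74.0% to 99.7%. Of the 88 members, 27 shared at least 1 window of 100 bases with another Ighv gene. Ighv1-62-2 shared 96.9% of its windows, most closely with Ighv1-71, and Ighv1-72 shared 50%, its nearest relative being Ighv1-62-3. How the counting treated strand and reads that map to several genes was not stated in the sources read. Coding lengths ran from 347 to 394 bases with a median of 351, and shares are shares of counts. Divided by length, the leading segment was the same in 15 of 16 libraries, the 10 most used members were the same 10, and no share moved by more than 0.245 percentage points.

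Library totals ran from 27305707 to 39909188 counts. Nfe2l2 was at 6.48 to 16.7 normalised CPM (read counts after scaling of the libraries to a common total) in KO libraries and at 102 to 122 CPM in WT libraries, so the target of the knockout was low in every KO library. Summed markers of neutrophils (8 genes, 23530 to 35030 CPM in KO and 23860 to 32760 CPM in WT) and of erythroid cells (6 genes, 49590 to 81080 CPM in KO and 40280 to 78990 CPM in WT) were high in every library, as marrow has them. Markers of heavy chain recombination and precursor B cells (14 genes) summed to 672.5 to 1086 CPM in KO libraries and 935.5 to 1477 CPM in WT libraries, and those of plasma cells (12 genes) to 496.9 to 963.8 CPM in KO libraries and 455.3 to 912.4 CPM in WT libraries. No member of either list was called between KO and WT, and no marker of either stood at 0 in all libraries of a genotype. KO BMX-001 replicate 1 stood apart, with 25.6 CPM summed over the 4 Ighj joining segments, where the other libraries had 5.10 to 8.90 CPM. It had 12210 CPM of Malat1, a nuclear RNA, where the others had 2549 to 5345 CPM. Of the neutrophil markers, Elane, Mpo, Prtn3, Ltf and Ngp were lowest in this library, and S100a8 and S100a9 highest. Mpo had 283.5 CPM there, against 1385 to 2272 CPM elsewhere, and S100a9 had 11010 CPM, against 5750 to 9363 CPM. Without that library the median log2 fold change of the members, KO against WT over all treatments, was 0.45, against 0.33 with it. Values without it for the comparisons in which BMX-001 is set against another group in KO are given beside those comparisons.

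The summed level of Ighv transcripts varied widely between duplicates. Summed over the 88 segments and given as raw CPM, the Ighv counts relative to the total of their library, the level was 455 and 575 in KO PBS, 141 and 295 in KO BMX-001, 850 and 339 in KO 5-FU, and 289 and 316 in KO BMX-001 + 5-FU. It was 647 and 204 in WT PBS, 217 and 351 in WT BMX-001, 177 and 170 in WT 5-FU, and 184 and 236 in WT BMX-001 + 5-FU. KO 5-FU replicate 1 and WT PBS replicate 1 were the highest libraries of their genotypes, and their duplicates lay far below them. Both KO libraries lay above both WT libraries in 5-FU and in BMX-001 + 5-FU, while the genotypes overlapped in PBS and in BMX-001. The mean was 408 ± 219 raw CPM in KO and 273 ± 162 raw CPM in WT (SD, n = 8 each), a difference smaller than the spread of either. KO libraries with 5-FU ranged from 289 to 850 raw CPM and those without it from 141 to 575 raw CPM, and the ranges overlapped. WT libraries with 5-FU ranged from 170 to 236 raw CPM and those without it from 204 to 647 raw CPM, again with overlap.

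**Figure D1:**
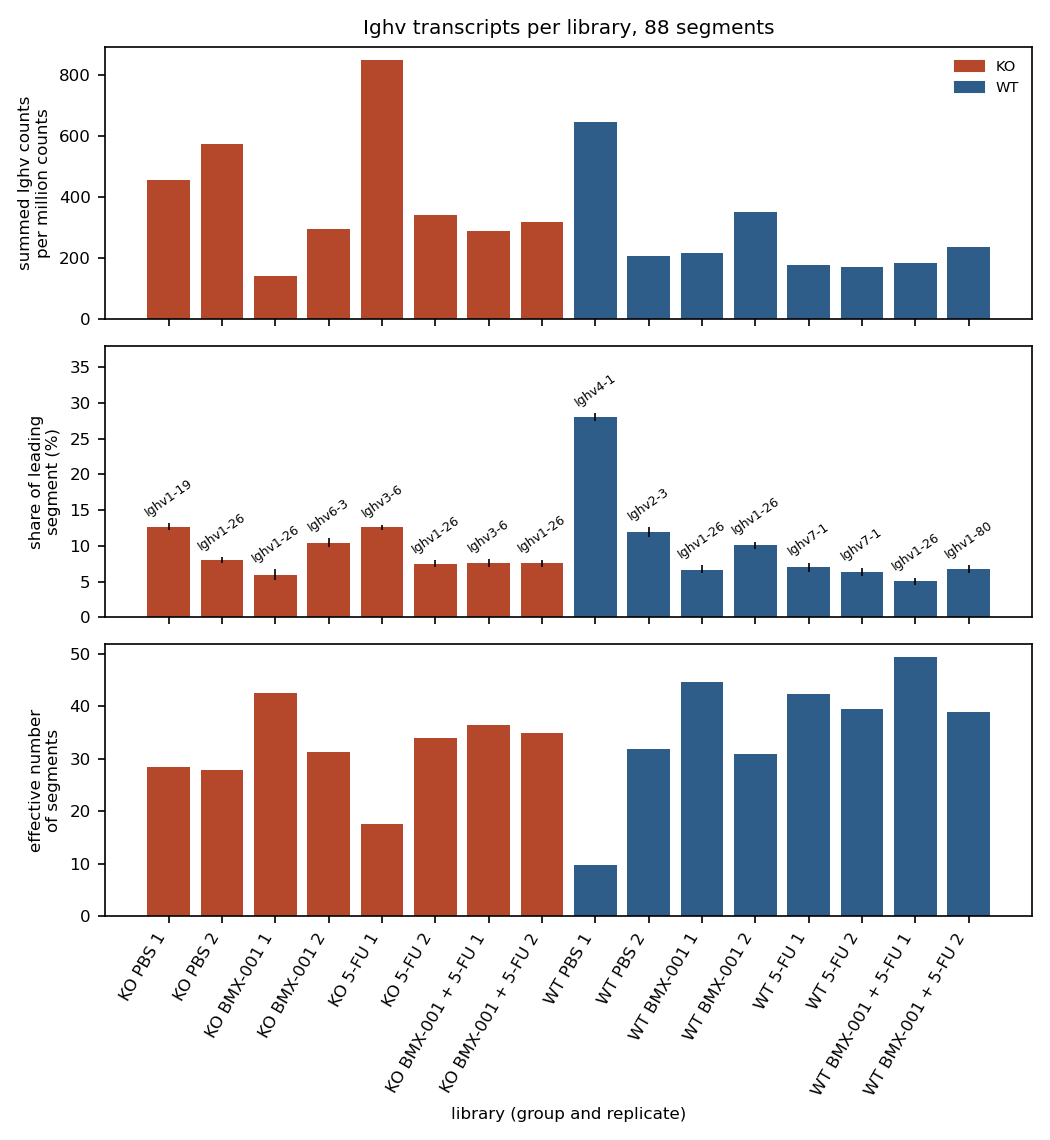
Each bar is 1 library, with KO on the left and WT on the right. The top panel gives summed Ighv counts as raw CPM (counts per total of the library), the middle panel the share (%) of the leading segment, named above its bar, with its 95% Wilson interval, and the bottom panel the effective number of segments. WT PBS 1 stands out with a leading share of 28.02% and an effective number of 9.77.

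A single segment led strongly in 1 library, and elsewhere the leading segment held between 5.04% and 12.7% of Ighv counts. In WT PBS replicate 1, Ighv4-1 held 28.02% (95% Wilson interval 27.5% to 28.6%, 6692 of 23885 counts). The leading segment of KO PBS was Ighv1-19 with 12.7% in replicate 1 and Ighv1-26 with 8.02% in replicate 2. The other WT PBS library was led by Ighv2-3 with 11.9%. KO BMX-001 was led by Ighv1-26 with 5.98% and Ighv6-3 with 10.5%, and WT BMX-001 by Ighv1-26 in both libraries, with 6.68% and 10.1%. KO 5-FU was led by Ighv3-6 with 12.6% and Ighv1-26 with 7.52%, and WT 5-FU by Ighv7-1 in both libraries, with 7.001% and 6.33%. KO BMX-001 + 5-FU was led by Ighv3-6 with 7.57% and Ighv1-26 with 7.56%, and WT BMX-001 + 5-FU by Ighv1-26 with 5.04% and Ighv1-80 with 6.72%. Thus only WT BMX-001 and WT 5-FU had the same leading segment in both duplicates, and divided by length WT 5-FU replicate 2 was led by Ighv1-26. The mean leading share was 9.04% ± 2.53 in KO and 10.2% ± 7.53 in WT (SD, n = 8 each), which overlapped. Intervals cover counting error only.

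The effective number of segments, the inverse of the summed squared shares, counts how many equally used segments would give the same evenness. It was 28.4 and 27.8 in KO PBS, 42.5 and 31.4 in KO BMX-001, 17.6 and 33.9 in KO 5-FU, and 36.5 and 34.8 in KO BMX-001 + 5-FU. It was 9.77 and 31.9 in WT PBS, 44.7 and 31.0 in WT BMX-001, 42.3 and 39.4 in WT 5-FU, and 49.4 and 38.9 in WT BMX-001 + 5-FU. The 2 libraries with the highest summed Ighv level of their genotype, KO 5-FU replicate 1 and WT PBS replicate 1, were also the least even. Evenness did not separate the genotypes, with a mean of 31.6 ± 7.37 in KO and 35.9 ± 12.2 in WT (SD, n = 8 each). Without Ighv4-1, WT PBS replicate 1 still had a summed Ighv level of 466 raw CPM, the highest of WT, and an effective number of 21.7, the lowest of WT. No test was made of these sums over members.

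A rule set after seeing the data picked out the segments raised in single libraries: a share of at least 5% that is at least 5 times the median of the other 15 libraries. It found 7 cases, of 6 segments in 7 libraries, with 4 cases in KO libraries and 3 in WT libraries. Ighv4-1, the only member of its family, held 28.02% in WT PBS replicate 1 and 0.276% to 1.84% in the other 15 libraries, which is 29.9 times their median of 0.936%. Ighv2-3 held 11.9% in WT PBS replicate 2 (954 counts) and had a median of 0.392% elsewhere, a ratio of 30.4. Each was raised in 1 of the duplicates only.

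Ighv1-19 held 12.7% in KO PBS replicate 1, against a median of 1.66% elsewhere, and Ighv1-74 held 5.46% in KO BMX-001 + 5-FU replicate 2, against a median of 0.538%. Ighv5-16 was raised in 2 libraries of different groups, with 6.71% in KO 5-FU replicate 1 and 5.82% in WT BMX-001 replicate 2. Ighv1-15 held 7.63% in KO PBS replicate 2 and 4.99% in KO PBS replicate 1, against a median of 0.935% in the 15 libraries other than the first of these, and was the only one of the 6 that stood high in both libraries of a group. The other 9 libraries had no such segment. With other cut-offs the count of cases ran from 3 (at least 10%) to 17 (at least 3 times the median).

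**Figure D2:**
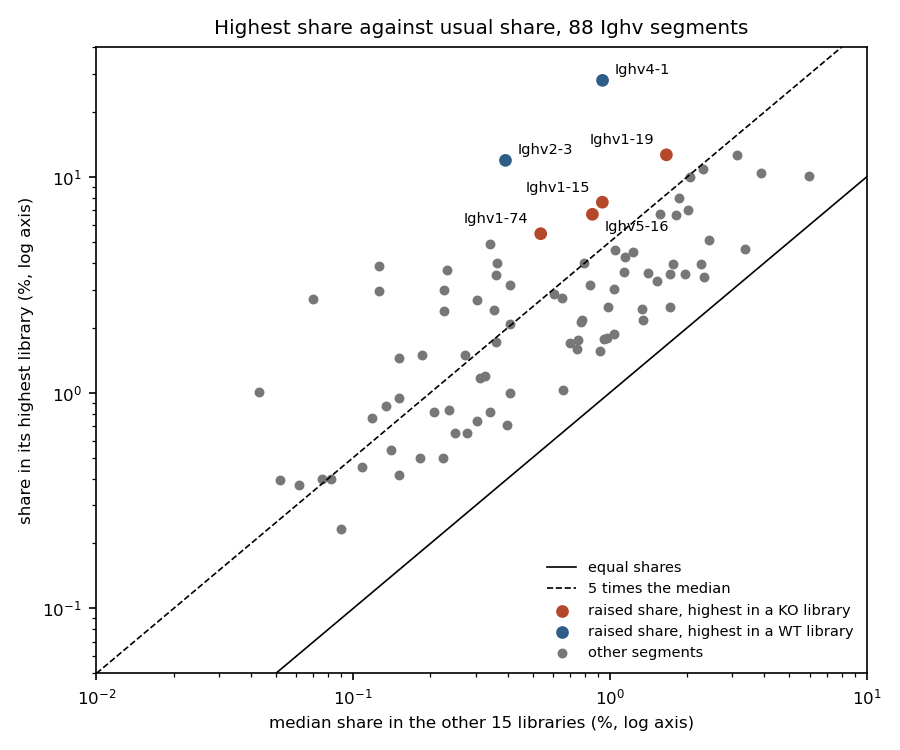
Each point is 1 of the 88 segments, with the median share (%) in the other 15 libraries on the horizontal axis and the share (%) in its highest library on the vertical axis, both on log axes. The 6 named segments hold at least 5% in a library and lie above the dashed line of 5 times the median, and Ighv4-1 lies highest at 28.02%.

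Less used segments also reached well above their usual share. The highest share of a member was at least 5 times the median of the other libraries for 30 of the 88 members and at least 10 times for 12. The median over members was 3.775 times. Ighv2-6-8 reached 2.72% in KO BMX-001 replicate 2 against a median of 0.0697% elsewhere, Ighv1-20 reached 3.87% in KO 5-FU replicate 2 against 0.126%, and Ighv1-77 reached 2.95% in WT BMX-001 + 5-FU replicate 1 against 0.126%. These 3 were named for their ratios after the values were seen.

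Nearly all members were detected in every library, which the way they were chosen favours. Of the 88 members, 87 were detected in all 16 libraries, and Ighv2-4 was missing from 2. Members had to reach a minimum summed count over these same libraries, and segments below it were left out. Their detection therefore does not show a common core of segments. The 10 most used together held 34.25% of Ighv counts on average, where even use would give each member 1.136%. Ighv1-26 had the highest mean share, 6.10%, and ranged from 3.94% to 8.02% in KO and from 3.475% to 10.1% in WT. Next came Ighv6-3 with 4.45%, Ighv3-6 with 3.95%, Ighv9-3 with 3.41% and Ighv8-8 with 3.10%. Ighv11-2 with 2.71%, Ighv7-1 with 2.70%, Ighv1-19 with 2.66%, Ighv1-9 with 2.61% and Ighv4-1 with 2.57% followed. The place of Ighv4-1 in this list comes from 1 library, as its median share over the 16 libraries was 0.939%. Neighbours in this order do not differ beyond their spread.

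**Figure D3:**
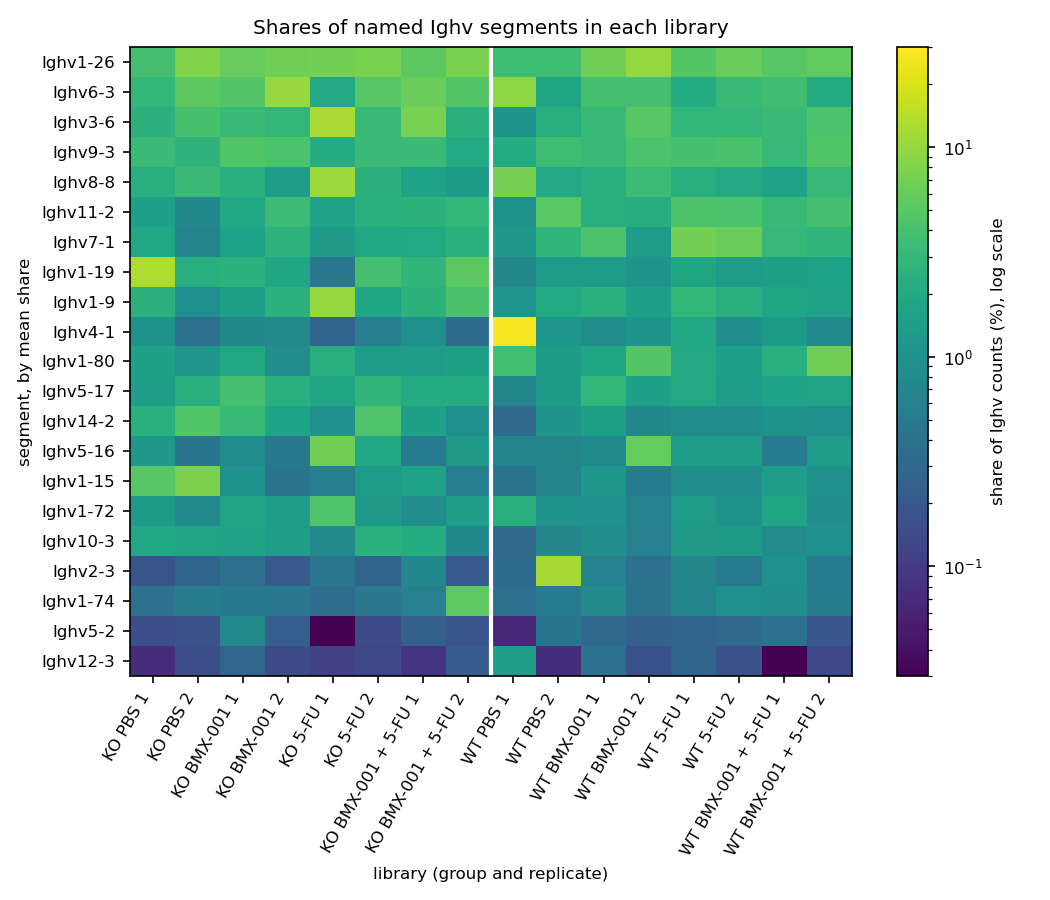
Shares of Ighv counts (%, colour on a log scale) of the named segments, in rows ordered by mean share, in each of 16 libraries, with KO left of the white line and WT right of it. Ighv1-26 is high in all columns, while Ighv4-1, Ighv2-3 and Ighv1-74 are bright in 1 column each.

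Several segments have well known roles in mouse B cells. Ighv5-2, the member nearest to the D segments and known for frequent use in early precursor B cells, was scarce, at 0.230 to 1.07 CPM over the 16 libraries, and no group stood apart. Ighv11-2 and Ighv12-3 are typical of B-1 cells that bind phosphatidylcholine. Ighv11-2 ranged from 2.38 to 13.5 CPM. Ighv12-3 reached 9.55 CPM in WT PBS replicate 1, where Ighv4-1 was also high, and lay between 0.0495 and 0.996 CPM in the other 15 libraries. Ighv7-1 is used in the classic T15 antibodies to phosphorylcholine. It had 12.1 and 10.3 CPM in WT 5-FU and 2.14 to 10.5 CPM in the other groups. In CPM only 1 of the 2 thus lay above all other libraries. By share of Ighv counts both did, with 7.001% and 6.33%. The highest share of Ighv7-1 elsewhere was 4.22%, in WT BMX-001 replicate 1. These shares were not tested. Ighv1-72, used in the classic anti-hapten (NP) response of C57BL/6 mice, had 37.9 CPM in KO 5-FU replicate 1 and 15.1 CPM in WT PBS replicate 1. In the other libraries it ranged from 1.67 to 6.54 CPM. None of these 5 segments was called in any of the 16 comparisons.

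Highest levels were gathered in few libraries. In normalised CPM, 60 of the 88 members had their highest level in a KO library and 28 in a WT library. The same count was not made over all genes, so these numbers do not show an excess in KO. KO PBS replicate 2 held the highest level of 19 members, KO 5-FU replicate 1 of 15, KO PBS replicate 1 of 11 and WT PBS replicate 1 of 9. In KO 5-FU replicate 1, Ighv3-6 reached 106 CPM against 4.05 to 25.6 CPM in the other 15 libraries. Ighv8-8 reached 91.6 CPM there and 47.7 CPM in WT PBS replicate 1, against 2.90 to 21.2 CPM in the others. Ighv1-9 reached 84.4 CPM in KO 5-FU replicate 1 and 1.97 to 12.6 CPM elsewhere. Ighv6-3 was highest in WT PBS replicate 1, with 62.3 CPM against 3.64 to 33.5 CPM elsewhere. The duplicates of these libraries did not share the peaks.

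By family, Ighv1 held the largest share in every library, 45.2% to 58.7% in KO and 37.1% to 52.3% in WT. Its mean share was 49.7% ± 4.54 in KO and 46.8% ± 5.32 in WT (SD, n = 8 each), so the genotypes overlapped. The lowest Ighv1 share was that of WT PBS replicate 1, where Ighv4-1 was high, and the highest that of KO BMX-001 + 5-FU replicate 2. Family Ighv5 held 8.37% ± 1.60 in KO and 8.04% ± 2.36 in WT, and family Ighv14 held 4.79% ± 2.48 in KO and 3.40% ± 0.917 in WT. Family Ighv2 reached 17.65% in WT PBS replicate 2, with Ighv2-3, and at most 6.59% in any other library.

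Use along the locus did not follow genotype in 1 direction. Ordered by distance from the D segments and split at the middle of the order, the distal members held 46.4% to 59.3% of counts in KO libraries and 40.3% to 55.1% in WT libraries. The values were 57.8% and 50.4% in KO PBS, against 40.3% and 43.1% in WT PBS, the lowest 2 of all. Both raised segments of WT PBS, Ighv4-1 and Ighv2-3, are D-proximal. With BMX-001 the distal members held 49.3% and 48.3% in KO, against 52.0% and 53.9% in WT, so that KO lay lower. With 5-FU they held 59.3% and 54.4% in KO, against 48.2% and 47.7% in WT, so that KO lay higher. With both drugs the genotypes overlapped, at 46.4% and 57.2% in KO and 53.35% and 55.1% in WT.

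Duplicates were hardly more alike than libraries of other groups. The distance between 2 libraries was taken as the percentage of Ighv counts that would have to change segment to make their profiles equal. It was 13.25% to 54.24% within the 8 pairs of duplicates, with a median of 25.71%. Between groups of 1 genotype it had a median of 29.53% (48 pairs), and between genotypes 32.06% (64 pairs). The closest pair of all was WT 5-FU. Only these 2 libraries had their own duplicate as nearest neighbour, and 11 of 16 had a nearest neighbour of their own genotype. The distances share libraries and were not tested.

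KO marrow differed from WT marrow in a few segments, all higher in KO. Averaged over the 4 treatments, 4 of the 88 members were called higher and 0 lower (edgeR's quasi-likelihood test, Benjamini-Hochberg adjusted p under 0.05 over all genes). Of all 19152 genes tested, 0.178% were called in this comparison, 0.0627% as higher and 0.115% as lower. DESeq2 called 11 members, where it called 2.08% of the genes it tested. The members had a median log2 fold change of 0.33, with 63 above 0 and 25 below, against a median of 0.00 over all genes tested. At an unadjusted p under 0.05 there were 28 members (31.8%) and 12.7% of all genes. The called segments belong to families Ighv14, Ighv10, Ighv1 and Ighv5.

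Of the called segments, Ighv14-2 differed most steadily. It had 11.9 and 29.1 CPM in KO PBS against 2.11 and 2.31 CPM in WT PBS, and 4.15 and 5.00 CPM in KO BMX-001 against 3.40 and 2.73 CPM in WT BMX-001. With 5-FU it had 8.30 and 14.4 CPM in KO against 1.58 and 1.499 CPM in WT, and with both drugs 4.26 and 2.88 CPM in KO against 1.91 and 2.15 CPM in WT. In each treatment both KO libraries lay above both WT libraries, and 7 of the 8 KO libraries lay above the highest WT library. Ighv1-55, which was not called, also had 7 of 8 above it, and Ighv1-19 and Ighv1-34, not called either, had 6 of 8. The log2 fold change of Ighv14-2 for KO over WT was 1.87 ± 0.19 (SE, adjusted p = 0.000762, edgeR). The call held when any 1 library was left out, with adjusted p up to 0.00709.

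In KO, Ighv10-3 had 9.26 and 10.6 CPM under PBS, 2.07 and 4.36 under BMX-001, 6.54 and 7.93 under 5-FU, and 5.98 and 2.26 under BMX-001 + 5-FU. All 8 WT libraries lay between 1.52 and 2.29 CPM. The KO libraries were thus more spread than the WT libraries, and 6 of 8 lay above all of WT. The log2 fold change of Ighv10-3 was 1.47 ± 0.21 (SE, adjusted p = 0.0121, edgeR), and leaving out 1 library ended the call in 5 of 16 fits, with adjusted p up to 0.0687.

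In KO, Ighv5-17 had 7.05 and 14.7 CPM under PBS, 5.12 and 7.11 under BMX-001, 14.9 and 8.997 under 5-FU, and 5.74 and 6.44 under BMX-001 + 5-FU. In WT it had a lowest value of 2.29, a median of 3.61 and a highest value of 6.40 CPM. The genotypes overlapped in BMX-001, and 6 of 8 KO libraries lay above all of WT. Its log2 fold change was 1.11 ± 0.18 (SE, adjusted p = 0.0341, edgeR). The call of Ighv5-17 was lost in 11 of 16 fits that left out 1 library, with adjusted p up to 0.121.

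Ighv1-15 was by far highest in KO PBS. It had 25.01 and 48.5 CPM in KO PBS against 2.83 and 1.47 CPM in WT PBS, and 1.34 and 1.30 CPM in KO BMX-001 against 2.66 and 1.88 CPM in WT BMX-001. With 5-FU it had 4.90 and 4.37 CPM in KO against 1.61 and 1.45 CPM in WT, and with both drugs 4.53 and 1.76 CPM in KO against 2.60 and 2.26 CPM in WT. KO lay above WT in PBS and 5-FU, below it in BMX-001, and overlapped it with both drugs. Averaged over treatments the log2 fold change was 1.32 ± 0.22 (SE, adjusted p = 0.0341, edgeR). The call of Ighv1-15 was lost in 10 of 16 fits that left out 1 library, with adjusted p up to 0.125.

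**Figure D4:**
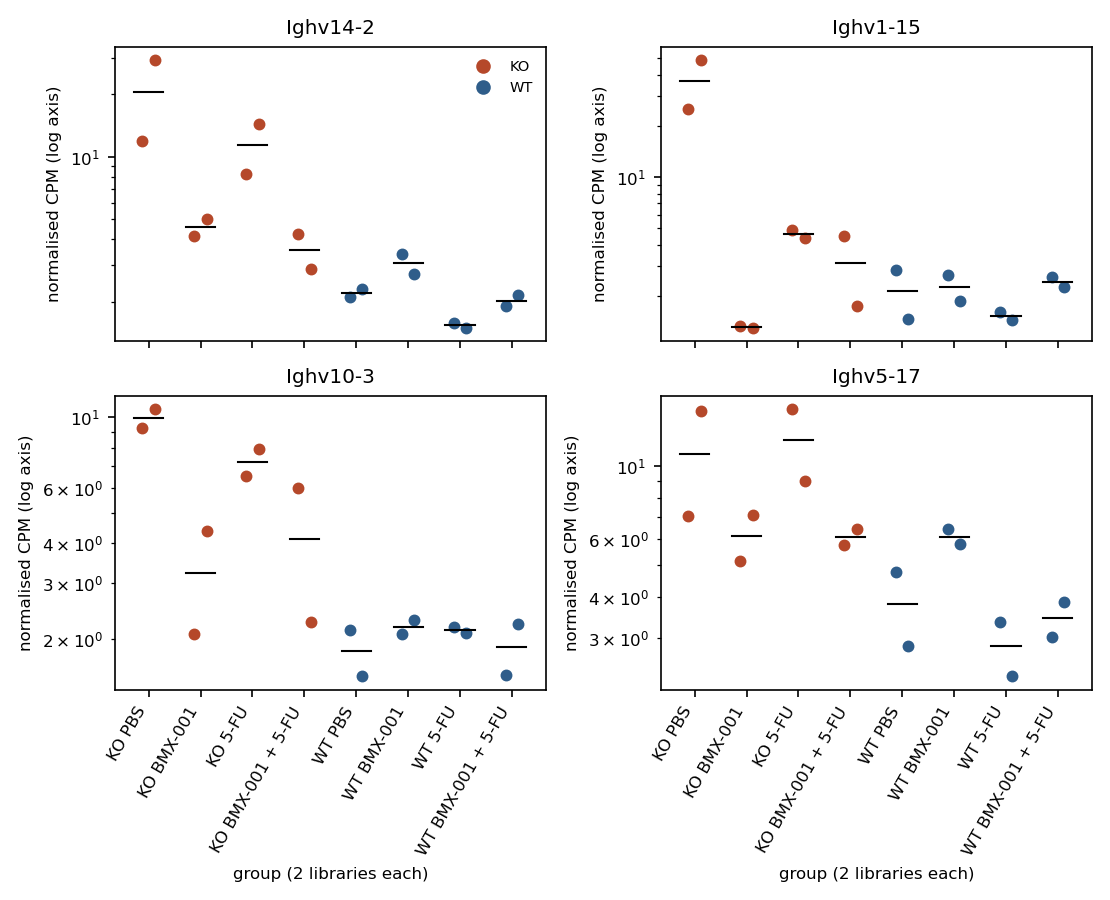
Normalised CPM (log axis) of the 4 segments called higher in KO, with 1 point per library and a line at the mean of each group of 2 libraries, KO groups left of WT groups. Ighv14-2 lies higher in both KO libraries than in both WT libraries of each treatment, and Ighv1-15 peaks in KO PBS at 25.01 and 48.5 CPM.

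Within single treatments, 2 members were called in KO PBS against WT PBS, where 0.0261% of all genes were called. These were Ighv1-15, with a log2 fold change of 4.09 ± 0.45 (SE, adjusted p = 0.00736, edgeR), and Ighv14-2, with 3.21 ± 0.39 (SE, adjusted p = 0.0134, edgeR). Without 1 of the WT PBS libraries the adjusted p of Ighv14-2 was 0.201 or 0.255, and without WT PBS replicate 2 that of Ighv1-15 was 0.135. Without KO BMX-001 replicate 2 the adjusted p of Ighv1-15 was 0.0516. In 5-FU the only called member was Ighv14-2, with 2.88 ± 0.40 (SE, adjusted p = 0.0452, edgeR), where 0.0157% of all genes were called. This call was lost in 13 of 16 fits without 1 library.

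No member was called between KO and WT in BMX-001, where 0.0104% of all genes were called, or in BMX-001 + 5-FU, where 0.0157% were. At an unadjusted p under 0.05 there were 9 members in BMX-001 (1 higher, 8 lower), which is 10.2% of members where 24.2% of all genes were so. In BMX-001 + 5-FU there were 20 (15 higher, 5 lower), 22.7% of members where 5.06% of all genes were so. DESeq2 called 2 members in BMX-001, where it called 2.92% of the genes it tested, and 1 in BMX-001 + 5-FU, where it called 0.224%. It called 7 in PBS and 8 in 5-FU, where it called 0.181% and 0.378% of the genes it tested. The median log2 fold change of the members in BMX-001 was -0.49 with KO BMX-001 replicate 1 and -0.17 without it. The medians were 0.61 in PBS, 0.95 in 5-FU and 0.18 in BMX-001 + 5-FU.

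In KO mice each treatment went with lower levels of Ighv1-15 than PBS. The KO PBS libraries serve as the control of all 3 comparisons, so the results are not independent, and the high values of KO PBS given above enter each. Ighv1-15 stood at 1.34 and 1.30 CPM in KO BMX-001, against 25.01 and 48.5 CPM in KO PBS. The log2 fold change was -4.80 ± 0.47 (SE, adjusted p = 0.00443, edgeR). It was the only gene called of all tested, 0.00522%, while DESeq2 called 20 members and 10.4% of the genes it tested. Without KO BMX-001 replicate 1 the value was -4.82 and the adjusted p 0.436, edgeR called no gene, and DESeq2 gave none of the 88 members an adjusted p. For 5-FU, Ighv1-15 changed by -2.99 ± 0.42 (SE, adjusted p = 0.0133, edgeR) and was the only member called, where 0.454% of all genes were called, while DESeq2 called 5 members and 1.97% of the genes it tested. Without KO 5-FU replicate 1, KO 5-FU replicate 2 or KO PBS replicate 2 its adjusted p was 0.203, 0.147 or 0.0985.

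For BMX-001 + 5-FU against PBS in KO, 2 members were called, both lower, where 0.606% of all genes were called (0.0313% higher, 0.574% lower), while DESeq2 called 9 members and 3.21% of the genes it tested. Ighv1-15 changed by -3.55 ± 0.44 (SE, adjusted p = 0.0148, edgeR) and Ighv14-2 by -2.52 ± 0.38 (SE, adjusted p = 0.0198, edgeR). Without KO PBS replicate 2 the adjusted p was 0.13 for each, and without KO BMX-001 + 5-FU replicate 2 it was 0.166 for Ighv1-15 and 0.255 for Ighv14-2. Without KO BMX-001 + 5-FU replicate 1 that of Ighv14-2 was 0.219. The members as a whole had negative medians against KO PBS, of -1.11 in BMX-001, -0.37 in 5-FU and -0.65 in BMX-001 + 5-FU, where all genes tested had 0.03, 0.02 and 0.03. The median for BMX-001 was -0.80 without KO BMX-001 replicate 1. BMX-001 + 5-FU against 5-FU in KO gave 0 called members and 0 called genes, while 12 members (13.6%, against 2.61% of all genes) had an unadjusted p under 0.05, and DESeq2 called 2 members and 0.0176% of the genes it tested.

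In WT mice no member was called in any of the 4 treatment comparisons by edgeR. Against WT PBS the median log2 fold change of the members was 0.11 in BMX-001, -0.56 in 5-FU and -0.34 in BMX-001 + 5-FU. All genes tested had medians of -0.003, -0.001 and 0.001. Negative medians of the members with 5-FU were thus not particular to KO. For BMX-001 against PBS 0% of all genes were called, and 5 members (5.68%) and 5.1% of all genes had an unadjusted p under 0.05. DESeq2 called 0 members and 0% of genes there. For 5-FU against PBS 0.00522% of all genes were called. At an unadjusted p under 0.05 there were 10 members, all lower, which is 11.4% of members where 14.4% of all genes were so, and DESeq2 called 3 members and 2.96% of the genes it tested. For BMX-001 + 5-FU against PBS 0% of all genes were called, and 12 members (13.6%) and 6.57% of all genes had an unadjusted p under 0.05. DESeq2 called 1 member and 0.0669% of the genes it tested there. For BMX-001 + 5-FU against 5-FU 0% of all genes were called by either tool, and 3 members (3.41%) and 3.93% of all genes had an unadjusted p under 0.05. Ighv4-1 had a log2 fold change of -5.34 ± 1.54 for 5-FU against PBS in WT (SE, adjusted p = 0.186, edgeR). That value rests on 1 library, as Ighv4-1 had 186 CPM in WT PBS replicate 1 and 0.970 to 5.27 CPM in all others.

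The difference between genotypes in the response to treatment was tested directly. By edgeR no member was called for BMX-001 or for 5-FU, and 0% of all genes were called in each. For BMX-001, 22 members (25%) and 11.1% of all genes had an unadjusted p under 0.05, and DESeq2 called 3 members and 0.0339% of the genes it tested. The median difference of log2 fold changes of the members for BMX-001 was -1.06, and -0.77 without KO BMX-001 replicate 1. For 5-FU, 14 members (15.9%) and 5.69% of all genes had an unadjusted p under 0.05. DESeq2 called 0.844% of the genes it tested there but gave none of the 88 members an adjusted p. The smallest adjusted p was that of Ighv1-15 for BMX-001, with a difference of log2 fold changes of -4.88 ± 0.63 (SE, adjusted p = 0.0786, edgeR), and without KO BMX-001 replicate 1 it was -4.90 with an adjusted p of 0.999. It is therefore not shown that the response of Ighv1-15 to BMX-001 differed between KO and WT. Over all 8 groups together 3 members were called, where 0.684% of all genes were called, and DESeq2 called 44 members and 12.6% of the genes it tested. By edgeR they were Ighv1-15 (adjusted p = 0.000482, edgeR), Ighv14-2 (adjusted p = 0.00334) and Ighv10-3 (adjusted p = 0.0325).

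Ighv2-4 was the only member without overlap between the 8 KO and the 8 WT libraries. Of all genes tested, 0.178% had no such overlap (0.0731% higher and 0.104% lower in KO), and 1 of the 88 members had none. Its counts were 0 and 3 in KO PBS, 0 and 4 in KO BMX-001, 1 and 6 in KO 5-FU and 4 and 2 in KO BMX-001 + 5-FU. They were 6 and 11 in WT PBS, 15 and 12 in WT BMX-001, 8 and 11 in WT 5-FU and 74 and 13 in WT BMX-001 + 5-FU. Scaled to library size all KO libraries lay below all WT libraries, at counts near the limit of this depth. The log2 fold change was -2.45 ± 0.56 (SE, adjusted p = 0.105, edgeR), which did not pass the threshold. Its near-identical relative Ighv2-2, shown above, had 1.24 to 7.52 CPM in KO and 1.71 to 3.98 CPM in WT, and overlapped. How reads were divided between Ighv2-4 and Ighv2-2 was not tested.

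Ighv2-4 was also among the members nearest to the count threshold. Just inside it were Ighv1-31 with 166, Ighv1-67 with 169 and Ighv2-4 with 170 counts over all libraries. Just outside were Ighv1-71 with 143, Ighv8-2 with 132 and Ighv1-49 with 121 counts.

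Constant regions, which are spliced to the V segment in the same transcript, gave a second view of the same RNA. Ighm, the mu chain, had 4664 CPM in KO 5-FU replicate 1 and 4110 CPM in WT PBS replicate 1, against 767 to 2240 CPM in the others. These 2 libraries also had the most Ighv counts of their genotypes and the lowest effective numbers. Igha, the alpha chain of IgA, had 208 to 2197 CPM in KO with a median of 796 CPM and 72.7 to 157 CPM in WT with a median of 108 CPM, without overlap. Its log2 fold change of 2.83 ± 0.28 (SE, adjusted p = 0.00286, edgeR) made it the only one of 7 constant regions tested that was called between KO and WT. Igha was highest in both KO PBS libraries, with 1506 and 2197 CPM, where Ighv1-15 was also highest. Ighv14-2 had 11.9 and 29.1 CPM there, and 14.4 CPM in KO 5-FU replicate 2. Whether these segments were joined to the alpha chain was not tested.

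Jchain, the joining chain of secreted IgM and IgA, was highest in the libraries with the highest Ighv level. It had 140.5 to 567 CPM in KO and 42.3 to 304 CPM in WT, which overlapped, with a log2 fold change of 1.63 ± 0.35 (SE, adjusted p = 0.114, edgeR). Its highest values were 567 CPM in KO 5-FU replicate 1, 430 and 341 CPM in KO PBS and 304 CPM in WT PBS replicate 1, the 4 libraries with the highest summed Ighv level. Summed over the 12 plasma cell markers, Jchain among them, these 4 libraries were the highest. They had 964 CPM in KO 5-FU replicate 1, 852 and 864 CPM in KO PBS and 912 CPM in WT PBS replicate 1. The other 12 libraries had sums of 455.3 to 707.9 CPM. Jchain itself made up 567 of the 964 CPM in KO 5-FU replicate 1, so the sum is not a view apart from Jchain. Derl3, of the protein quality control of the endoplasmic reticulum, had 2.73 to 5.13 CPM in the 4 libraries and 1.01 to 1.78 CPM in the other 12. Tnfrsf17, the receptor BCMA, had 1.30 CPM in KO 5-FU replicate 1 and 1.08 CPM in WT PBS replicate 1, and 0.0983 to 0.845 CPM elsewhere. Jchain and Derl3 were the 2 of the 12 markers for which all 4 libraries lay above all others. Pou2af1, a coactivator of B cells, had 66.0 CPM in KO 5-FU replicate 1 and up to 172 CPM in other libraries. Rag1, a nuclease of V(D)J recombination, had 37.3 to 99.2 CPM in KO and 80.5 to 153 CPM in WT. The part of cell composition in the results on Ighv segments was not tested.

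**Figure D5:**
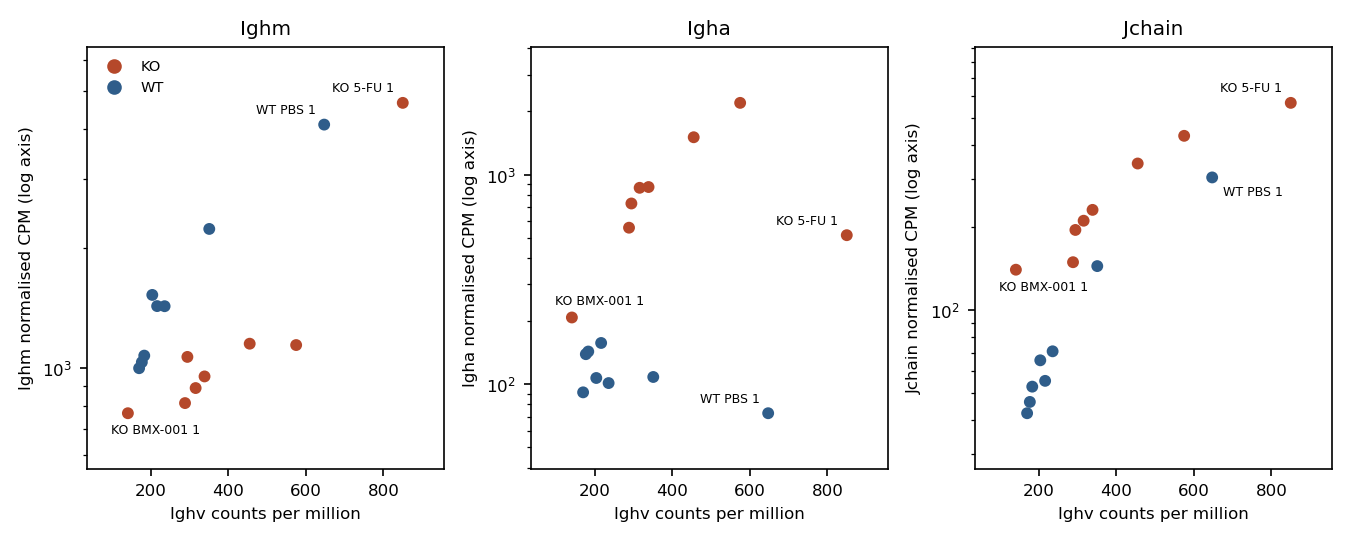
Normalised CPM (log axis) of Ighm, Igha and Jchain against the summed Ighv level (raw CPM) in each library, KO and WT in separate colours. Igha separates the genotypes (208 to 2197 CPM in KO, 72.7 to 157 CPM in WT), while Ighm is highest in KO 5-FU 1 and WT PBS 1.

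Light chain variable segments were also unevenly used. In WT PBS replicate 1, where Ighv4-1 led, Igkv6-17 was the leading light chain segment with 9.92% of light chain variable counts against a median of 1.06% in the other 15 libraries. In WT PBS replicate 2, where Ighv2-3 was raised, Igkv19-93 held 15.7% against 2.21%. In KO PBS replicate 2, where Ighv1-15 was raised, Igkv5-39 held 11.3% against 1.504%. In KO PBS replicate 1, where Ighv1-19 was raised, Iglv1 led with 21.2% against 9.42%. Iglv1 also led in libraries without a raised heavy chain segment, among them KO 5-FU replicate 2 with 14.9% and KO BMX-001 replicate 1 with 14.65%. Igkv10-96 led with 14% in KO 5-FU replicate 1 and 13.5% in KO BMX-001 + 5-FU replicate 2, both with a raised heavy chain segment, and with 8.706% in KO BMX-001 + 5-FU replicate 1, which had none, against a median of 3.115%. In WT BMX-001 replicate 2, where Ighv5-16 was raised, the leading Iglv1 held 7.234%, below its median of 9.523% elsewhere. Whether the segments came from the same cells was not tested.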

How the data were processed

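RNA sequencing libraries of 16 marrow samples in 8 groups of 2 were used. Raw counts for 57132 Ensembl genes are what the authors deposited, and 51880 were given a symbol by gene ID without version, from an annotation of GRCm38. Per the submitters' processing notes the tools were featureCounts, Salmon 1.4.0, R 4.3.0 with DESeq2 1.38.3, and FastQC 0.12.1 with Trim Galore 0.6.4. The build named there is GRCm39, so no coordinates are printed here. All sample columns were used. Counts were tested in R 4.3.3 with edgeR 4.0.16 (filterByExpr, which left 19152 genes, TMM scaling, robust quasi-likelihood fit of 8 group means, 8 residual degrees of freedom) in 16 comparisons, each with Benjamini-Hochberg adjustment over all genes tested. SE is the log2 fold change divided by the square root of the F statistic. Shares were computed in Python 3.11.15 from raw counts of the members, and their 95% Wilson intervals cover counting error only. The duplicates of every group differed beyond counting noise (chi-square per degree of freedom 8.09 to 130). The fit was tested on simulated data. Alternatives were DESeq2 1.42.0, other scalings, no low-count filter, a non-robust fit, a replicate block, a higher count threshold for members and each library left out.

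The members, the marker lists and the rule for named genes were chosen with earlier results of these data known. The rule names every called member, the 10 of highest mean share, the leading segment of each library, the 3 nearest to the count threshold on either side, and Ighv5-2, Ighv11-2, Ighv12-3, Ighv1-72 and Ighv7-1. Segments with raised shares, their cut-offs, Ighv2-4 and the light chain segments were chosen after the values were seen. Sequences are those of the GENCODE annotation of GRCm38.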

Additional observations from a re-analysis of the deposited data

Results flagged for a closer look

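With 2 libraries per group no single group is large enough to look for a library far from the others, so the 8 KO and the 8 WT libraries were each treated as 1 set over 4 treatments. Of 14 sets of values checked, 4 had a library whose gap to the next was large for the range of the set. Chance gives about 1 in 20 for independent sets of like libraries with normal values. These sets are not independent and each pools 4 treatments, so that rate cannot be set against the 4 found. Ighv14-2 stood at 29.1 CPM in KO PBS replicate 2, with a gap of 0.56 of the range. WT PBS replicate 1 gave the other 3. Its summed Ighv level was 647 raw CPM (gap 0.621 of the range), its leading share was 28.02% (gap 0.7) and its effective number of segments was 9.77 (gap 0.535). The treatments differ within these sets, and treatment and library cannot be told apart here.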

How the results depend on the processing

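The called segments kept their direction under every alternative run, but many calls depended on the fit. Numbers of called members were higher with DESeq2, at 11 for KO against WT (7 in PBS, 2 in BMX-001, 8 in 5-FU, 1 in BMX-001 + 5-FU). In KO, DESeq2 gave 20 for BMX-001, 5 for 5-FU and 9 for BMX-001 + 5-FU against PBS, and 2 for BMX-001 + 5-FU against 5-FU. In WT it gave 3 for 5-FU and 1 for BMX-001 + 5-FU against PBS, and it gave 3 for the interaction with BMX-001 and 44 over all 8 groups. Of all genes with an adjusted p it called 0% to 12.6% in these comparisons. A fit without KO BMX-001 replicate 1 was chosen after seeing the data. By DESeq2 the median log2 fold change of the members was then 0.45 for KO against WT and -0.18 in BMX-001. It was -0.78 for the interaction with BMX-001. DESeq2 gave no member an adjusted p for the interaction with 5-FU or, without that library, for BMX-001 in KO. Without the low-count filter the numbers were 41 for KO against WT (39, 33, 36 and 30 in PBS, BMX-001, 5-FU and BMX-001 + 5-FU). In KO they were 60, 38 and 30 for BMX-001, 5-FU and BMX-001 + 5-FU against PBS and 25 against 5-FU. In WT they were 16, 22, 17 and 5 in the same order. They were 40 and 29 for the interactions with BMX-001 and 5-FU and 77 over all 8 groups. Of all genes, 0.105% to 12.9% were called in these comparisons. The cause was not tested. A non-robust fit gave 0 for KO against WT in 5-FU and 6 over all groups. The share of all genes called is not given for the non-robust fit, so its counts show no excess of members.

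Leaving out 1 library gave 1 to 13 called members for KO against WT, 1 to 3 in PBS, 0 to 9 in BMX-001, 0 to 2 in 5-FU and 0 to 0 in BMX-001 + 5-FU. In KO it gave 0 to 19 for BMX-001, 0 to 3 for 5-FU and 0 to 4 for BMX-001 + 5-FU against PBS, and 0 to 1 against 5-FU. In WT it gave 0 to 0 for BMX-001 and 0 to 1 for each of the other 3. For the interactions it gave 0 to 10 with BMX-001 and 0 to 0 with 5-FU, and over all groups 2 to 21. The highest of these came from leaving out KO BMX-001 replicate 2, so that the library that stands apart is alone in its group. A lone library is assumed to vary like those of other groups. The share of all genes called is not given for these fits, so the counts show how far calls moved and no excess of members. Without KO BMX-001 replicate 1 the median log2 fold change of the members was 0.45 for KO against WT and -0.80 for BMX-001 in KO. Mean summed Ighv levels ran from 344 to 445.5 raw CPM in KO and from 220 to 288 raw CPM in WT, mean leading shares from 8.53% to 9.48% in KO and 7.68% to 11.0% in WT, and mean effective numbers from 30.1 to 33.6 in KO and 34.0 to 39.7 in WT. With a count threshold of 1600 the KO mean effective number was 23.15, over fewer members. Cases of raised segments numbered 15 at 3% and 5 times the median, 17 at 5% and 3 times, and 3 at 10% and 5 times.

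Replicate numbers did not pair the libraries: over 28 pairs of groups the correlation of deviations of same-numbered libraries ran from -0.391 to 0.196 with a median of 0.009, and 6 were over 0.1. With the replicate number as a block, 0 members were called for KO against WT in 5-FU and 4 for KO against WT over treatments. The share of all genes called with the block is not given, so these counts show no excess of members. Under the block the adjusted p of Ighv14-2 in 5-FU was 0.0636 and that of Ighv5-17 for KO against WT was 0.0573.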
